A study of Mus musculus with 6 samples.

Results

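The potassium channel genes were taken here as all genes whose symbol starts with Kcn, which covers pore-forming subunits, their auxiliary subunits and a few non-coding RNAs read from the same loci. Each gene was represented by the probe set with the highest mean log2(signal + 16) over the 6 arrays, using only probe sets annotated to a single symbol, and was kept where that mean lay above 5.426, the log2 of 43. The rule found 84 genes with 167 probe sets, and 59 genes were kept, of 12293 genes kept by the same rule on the whole array. Of the 59 genes, 57 code for proteins and 2 are non-coding (Kcnq1ot1 and Kcnmb4os2), and the 57 coding genes fall into 19 subfamilies by symbol stem. The 3 members just above the floor were Kcng4 (5.427), Kcnmb4os2 (5.428) and Kcnh5 (5.474), and the 3 genes just below it were Kcna7 (5.417), Kcns3 (5.330) and Kcnk12 (5.144).

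The study profiled the striatum of 3 PGC-1a-/- mice (KO) and 3 PGC-1a+/+ mice (WT), all females aged 6 months and offspring of PGC-1a+/- founders, with 1 Affymetrix array per mouse. The gene was disrupted in the germline, so every cell of a KO mouse carried the allele, and the labels do not say which part of the gene it removes. RNA is recorded as total RNA in the series design, but the label of KO 3 alone reads cytoplasmic RNA, and values without KO 3 are given beside each call. The 5 tested probe sets for Ppargc1a, which encodes PGC-1alpha, all fell, with differences (KO minus WT) of -1.93 to -1.12 on the log2 scale. The first of them read 89.5, 87.9 and 68.4 in KO 1 to 3, against 397, 305 and 370 in WT 1 to 3 (limma adjusted p = 3.0e-05). Without KO 3 the 5 probe sets remained called, with differences of -1.83 to -0.98.

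Potassium channels carry K+ out of neurons and so repolarise the action potential, set the resting potential and limit firing. Tetramers of voltage-gated (Kv) subunits open on depolarisation and are joined by auxiliary subunits that alter their gating and trafficking. Inward rectifiers (Kir) and tandem-pore (K2P) channels pass current near rest, and other channels open with internal calcium or sodium. In the striatum, Kir channels hold medium spiny neurons at a negative resting potential, A-type Kv channels delay their firing, and Kv3 channels allow parvalbumin interneurons to fire fast. PGC-1alpha is a coactivator of nuclear receptors and other transcription factors that is best known for its control of mitochondrial genes.

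The promoters of Kcnab2 are shown because it was the member whose signal changed. RefSeq gives 3 transcription starts for this gene on the minus strand of GRCm38.p6, and each window runs from 250 bases before a start to 50 bases after it. The windows are chr4:152477500-152477799, chr4:152452896-152453195 and chr4:152448806-152449105. Capitals mark the core of the cAMP response element, TGACG, on either strand.
Kcnab2 start a: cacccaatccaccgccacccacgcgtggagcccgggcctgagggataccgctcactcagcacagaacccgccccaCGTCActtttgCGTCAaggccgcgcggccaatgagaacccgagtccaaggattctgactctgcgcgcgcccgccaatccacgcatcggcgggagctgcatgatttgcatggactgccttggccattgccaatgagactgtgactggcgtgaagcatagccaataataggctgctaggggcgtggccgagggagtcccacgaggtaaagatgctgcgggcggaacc
Kcnab2 start b: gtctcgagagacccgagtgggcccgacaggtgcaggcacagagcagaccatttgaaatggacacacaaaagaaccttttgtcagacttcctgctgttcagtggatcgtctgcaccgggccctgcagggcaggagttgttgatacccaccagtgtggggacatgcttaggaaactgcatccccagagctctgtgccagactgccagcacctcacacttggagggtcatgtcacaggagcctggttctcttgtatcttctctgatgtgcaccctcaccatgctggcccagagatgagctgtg
Kcnab2 start c: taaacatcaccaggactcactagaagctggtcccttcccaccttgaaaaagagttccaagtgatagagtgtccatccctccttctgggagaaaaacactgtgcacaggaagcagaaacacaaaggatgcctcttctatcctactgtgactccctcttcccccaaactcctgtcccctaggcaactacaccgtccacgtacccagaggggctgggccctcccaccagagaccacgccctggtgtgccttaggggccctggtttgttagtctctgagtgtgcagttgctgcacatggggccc
The first window holds 2 cores, both on the strand opposite to the gene, and a GC content of 62.7%. The other windows hold no core and have GC contents of 56% and 55%. Windows of this kind were available for 44 member genes, 66 windows in all, and each motif was searched on both strands. The core TGACG was present in 13 of the 66 windows (19.7%), against 20.8% of all 32851 windows. The full element TGACGTCA, which contains the core, was in none of the 66 member windows and in 1.79% of all windows. The estrogen-related receptor core AAGGTCA was in 3 member windows (4.55%), those of Kcnf1, Kcnh1 and Kcnj16, against 4.72% of all windows. A match is a stretch of letters, and the array did not measure binding.

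Of the 59 genes, 1 passed an adjusted p under 0.05 in limma, and it was lower in KO mice, against 0.447% of all 12293 genes called and 0.301% called lower. That gene was Kcnab2. A total of 35 genes were higher and 24 lower in KO mice whatever the test, so 59.3% were higher, against 48.2% of all genes. The median difference, KO minus WT, was 0.04 on the log2 scale, against -0.01 over all genes. Centred on each gene's mean over WT mice, the members' medians were 0.03, 0.08 and 0.04 in KO 1 to 3 and 0.03, 0.01 and -0.01 in WT 1 to 3, so KO 1 and WT 1 had the same median. An unadjusted p under 0.05 was found for 11 of the 59 (18.6%, 5 higher and 6 lower), against 9.74% of all genes (4.13% higher and 5.6% lower). The groups did not overlap for 11 genes (18.6%), against 15.1% of all genes. Most differences were small: 38 of the 59 lay within 0.2 of 0, against 9170 of the 12293 genes. The members still spread somewhat wider than all genes. The median size of the difference, whatever its sign, was 0.13, against 0.11 over all genes. The upper quartile of this size was 0.30, against 0.20. In whole-tissue RNA, fewer cells of a type and less RNA per cell cannot be told apart in any of these values.

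**Figure D1:**
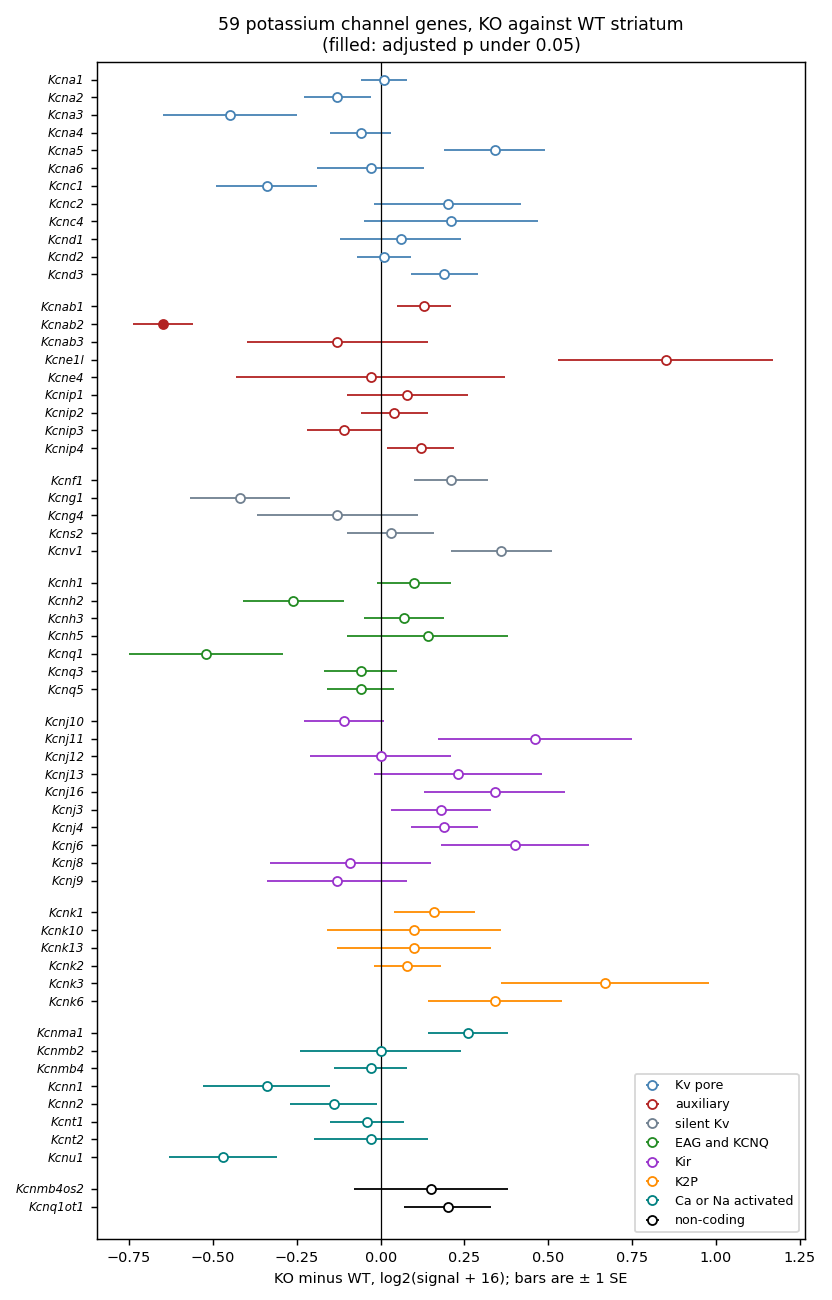
The difference KO minus WT in log2(signal + 16) for each of the 59 genes, with the standard error as a bar (n = 3 mice per genotype), grouped by role. The filled point is Kcnab2 at -0.65, the 1 gene past an adjusted p under 0.05, and 38 of the 59 points lie within 0.2 of 0.

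The marker genes of medium spiny neurons, the main cell type of the striatum, were present in all arrays. Of 10 listed, 8 were measured, among them Ppp1r1b, Drd1, Drd2, Penk and Pde10a, and their summed signal was 25657 to 28084 in KO mice and 23796 to 28400 in WT mice. Summed astrocyte markers (6 of 6 measured) were 9477 to 10958 in KO mice and 9881 to 10177 in WT mice. Oligodendrocyte markers (5 of 6) summed to 22886 to 25038 in KO mice and 23552 to 28543 in WT mice. All 5 were lower in KO mice, with a median difference of -0.18, and none was called. Mag was the lowest, at 508, 561 and 495 in KO mice, against 812, 657 and 661 in WT mice (-0.43, limma adjusted p = 0.11). Cortical excitatory neuron markers (3 of 4) summed to 178 to 529 in KO mice and 185 to 406 in WT mice. Markers of thalamus, a neighbouring region (4 of 4 measured), summed to 1408, 1581 and 1266 in KO mice and to 1922, 578 and 873 in WT mice. WT 1 was thus highest and WT 2 lowest. All 4 thalamus markers were higher in KO mice, with a median difference of 0.68. The groups overlapped for each, and none was called. Tcf7l2 differed most, at 139, 134 and 97.3 in KO mice, against 119, 36.1 and 45 in WT mice (0.87, limma adjusted p = 0.34). Of the 6 choroid plexus markers 3 were measured, and Ttr was higher in KO mice at 3660, 2597 and 3062, against 1264, 1543 and 2193 in WT mice (0.91, limma adjusted p = 0.035). Leaving out KO 1, KO 3, WT 1 or WT 2 ended the Ttr call, with adjusted p of 0.09 to 0.14 (0.11 without KO 3). Signals of 2 arrays correlated at 0.977 to 0.979 within KO, 0.972 to 0.974 within WT and 0.972 to 0.976 between genotypes.

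The pore-forming subunits of the Kv1, Kv3 and Kv4 families showed no call among 12 measured genes, 7 of them higher and 5 lower in KO mice, with a median difference of 0.01. Kcna1 and Kcna2 encode the Kv1 subunits of axons, which set the threshold for firing. Kcna1 read 1316, 1394 and 1327 in KO mice, against 1390, 1397 and 1238 in WT mice (0.01, 95% interval -0.16 to 0.17). Kcna2 read 669, 667 and 576 in KO mice, against 795, 656 and 656 in WT mice (-0.13, -0.35 to 0.08). The groups overlapped for both. The subunits of A-type current, which inactivates quickly, were as close. Kcna4 read 458, 395 and 387 in KO mice, against 430, 434 and 426 in WT mice (-0.06, -0.26 to 0.14). Kcnd2, the main Kv4 subunit of medium spiny neurons with Kcnd3, read 2172, 1781 and 1915 in KO mice, against 1837, 1903 and 2076 in WT mice (0.01, -0.17 to 0.19). Kcnd3 read 439, 472 and 466 in KO mice and 435, 346 and 428 in WT mice. Each KO value lay above each WT value, by a margin of 439 in KO 1 over 435 in WT 1, and the difference of 0.19 did not pass (limma adjusted p = 0.63). Without WT 2 it was 0.09.

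The remaining Kv1 subunits went in opposite directions. Kcna3, a delayed rectifier also known from lymphocytes and microglia, was dim, with 27.7, 53.5 and 41.3 in KO mice, against 58.4, 58.1 and 64.5 in WT mice (-0.45, limma adjusted p = 0.52). All KO values were below all WT values. Without KO 1, the lowest array, the difference was -0.27. Of the microglia markers, 5 of 5 were measured and summed to 2577 to 2919 in KO mice and 2486 to 2872 in WT mice. Csf1r makes up most of these sums, with means of 1848 in KO mice and 1758 in WT mice. Of the 5 markers 3 were higher and 2 lower in KO mice, among them Aif1 (-0.64, limma adjusted p = 0.34). The part of microglia in the Kcna3 value was not tested. Kcna5, a delayed rectifier best known from heart and vessels, read 314, 522 and 379 in KO mice, against 311, 323 and 293 in WT mice (0.34, limma adjusted p = 0.48). KO 2 was the highest array, and without it the difference was 0.15. The other Kv1 and Kv4 members, Kcna6 and Kcnd1, differed by -0.03 and 0.06.

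Kv3 channels repolarise fast-spiking neurons. Kcnc1 read 446, 583 and 417 in KO mice, against 767, 504 and 588 in WT mice, so the groups overlapped (-0.34, limma adjusted p = 0.49). Without WT 1 the difference was -0.18, and it ran to -0.48 with another array left out. Its other 3 tested probe sets differed by -0.21, -0.19 and 0.32. Kcnc2 read 395, 395 and 392 in KO mice, against 568, 246 and 282 in WT mice, a wide spread in WT (0.20, -0.28 to 0.68). Without WT 1 its difference was 0.55 and without WT 2 it was -0.02. WT 1 was highest and WT 2 lowest for both genes among WT mice, the order also seen in the summed thalamus markers. This order was not particular to the Kv3 genes. Kcne1l, Kcnd3, Kcnj3 and Kcnma1 were among other members with it, while Kcna1 and Kcnd2 were among those without it. The parvalbumin gene Pvalb, the defining marker of fast-spiking interneurons, read 476, 748 and 444 in KO mice, against 1362, 652 and 701 in WT mice, and Syt2 read 85.1, 75.1 and 37.7 in KO mice, against 142, 111 and 110 in WT mice. Neither passed (adjusted limma p of 0.41 and 0.23). Summed markers of these interneurons, all 5 measured, were 7269 to 7906 in KO mice and 7853 to 9256 in WT mice, and the list contains Kcnc1 and Kcnc2 themselves. Gad1, which medium spiny neurons also express, makes up most of these sums, with means of 6012 in KO mice and 6456 in WT mice. The part of either marker list in the Kv3 values was not tested. The last Kv3 member, Kcnc4, differed by 0.21 (-0.36 to 0.78).

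The auxiliary subunits held the call. The Kcnab genes encode cytoplasmic beta subunits that dock under Kv1 tetramers, belong by fold to the aldo-keto reductases and bind NADPH. Kcnab2, the beta subunit that helps bring Kv1 channels to axons, read 388, 390 and 390 in KO mice, against 671, 637 and 560 in WT mice. The 3 KO mice were nearly identical and lay well below the lowest WT mouse. Means were 389 ± 1.12 in KO mice and 623 ± 57.1 in WT mice (SD, n = 3 each). The difference was -0.65 with a standard error of 0.09 (95% interval -0.85 to -0.46), so WT was 1.57-fold higher on the log2(signal + 16) scale, with a limma adjusted p of 0.0061. The two-sided exact permutation test gave 0.1, the smallest p that 3 mice against 3 allow. The call held without KO 3, the array with the other RNA label (-0.65, adjusted p = 0.025), and was lost when limma was run without its intensity trend (adjusted p = 0.15).

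A second probe set for Kcnab2 gave the same direction, with 95.9, 95.2 and 113 in KO mice and 231, 194 and 180 in WT mice. Means were 101 ± 10.1 in KO mice and 202 ± 26.1 in WT mice (SD, n = 3 each), again without overlap. WT was 1.85-fold higher (-0.89, standard error 0.13, limma adjusted p = 0.012). This second call held without KO 3 (-0.96, adjusted p = 0.022) and was lost without KO 1 (0.054), without KO 2 (0.055) and without the intensity trend (0.092). Both probe sets read the same RNA samples, so they do not count as separate replicates of the genotype effect. A mean over both gave a difference of -0.77 (limma adjusted p = 0.0079).

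The other beta subunits did not pass. Kcnab1 read 3133, 3213 and 2827 in KO mice, against 2755, 3028 and 2583 in WT mice, with overlap (0.13, -0.04 to 0.30). Its second probe set read 1059, 1264 and 1018 in KO mice, against 989, 957 and 910 in WT mice, with all KO values above all WT values (0.22, limma adjusted p = 0.46). Kcnab3 was near the floor, with 30.2, 29.3 and 56.3 in KO mice and 50.3, 24 and 58.8 in WT mice (-0.13, -0.72 to 0.46). Among the pore-forming Kv1 genes, the intervals of Kcna1, Kcna2 and Kcna4 had a lowest bound of -0.35, above the -0.65 of Kcnab2, while the interval of Kcna3 (-0.89 to -0.01) includes -0.65.

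**Figure D2:**
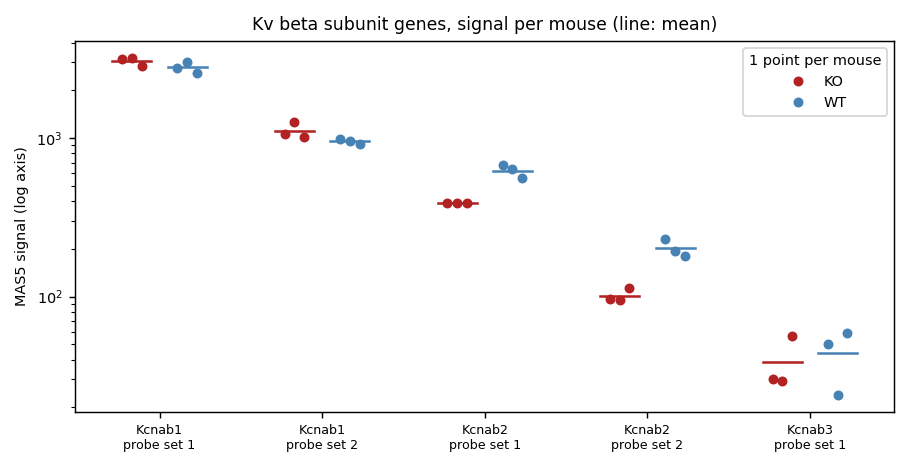
The MAS5 signal of the Kv beta subunit genes in each mouse on a log axis, KO left of WT, for each tested probe set, with the group mean as a line. For Kcnab2 the KO mice read 388 to 390 in the first probe set, against 560 to 671 in WT mice, and the groups do not overlap in either probe set.

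The Kcnip genes encode calcium-binding proteins that speed up the recovery of Kv4 channels, and all 4 measured were close to equal. Kcnip2, the partner of Kcnd2, read 1572, 1347 and 1223 in KO mice, against 1352, 1469 and 1204 in WT mice (0.04, -0.18 to 0.26). Kcnip1 read 118, 184 and 154 in KO mice, against 156, 108 and 167 in WT mice (0.08, -0.31 to 0.46). Kcnip4 read 457, 446 and 476 in KO mice, against 466, 361 and 444 in WT mice (0.12, -0.10 to 0.34). It is on chromosome 5 beside Ppargc1a, with 2 measured genes between them, and its groups overlapped. Kcnip3, also known as a transcriptional repressor, differed by -0.11.

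The Kcne genes encode small single-pass membrane subunits. Kcne1l, now usually called Kcne5, read 154, 95 and 91.8 in KO mice, against 97.1, 23.2 and 62.1 in WT mice. Its difference of 0.85 was the highest of the 59 and did not pass (interval 0.16 to 1.54, limma adjusted p = 0.40). KO 1 and WT 2 stood apart from their groups: without KO 1 the difference was 0.64 and without WT 2 it was 0.43. Kcne4 was dim and scattered, with a difference of -0.03 (-0.90 to 0.84). Kcne2, a choroid plexus subunit, was below the floor.

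Silent Kv subunits do not form channels alone but join other Kv subunits and change their gating. Of 5 measured, none was called and 3 were higher. Kcng1 read 112, 118 and 112 in KO mice, against 122, 193 and 168 in WT mice, all KO values being lower (-0.42, limma adjusted p = 0.39). Kcnv1 read 195, 216 and 296 in KO mice, against 177, 195 and 162 in WT mice (0.36, limma adjusted p = 0.46). Its second probe set ran the other way, with 140, 164 and 109 in KO mice and 197, 177 and 165 in WT mice (-0.36, again without passing), and the third differed by -0.11. No direction can be given for Kcnv1. Kcnf1 read 254, 253 and 283 in KO mice, against 247, 227 and 202 in WT mice, without overlap (0.21, limma adjusted p = 0.60). Its dimmer probe set differed by 0.82 (-0.05 to 1.69), with WT 3 at 3.2. Kcns2 differed by 0.03 (-0.25 to 0.32) and Kcng4 by -0.13 (-0.64 to 0.38).

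The EAG and KCNQ families include the M-current, a slow current that muscarinic receptors close. Of 7 measured genes 4 were lower in KO mice, with a median of -0.06 and no call. Kcnq3, an M-current subunit, read 1216, 1284 and 958 in KO mice, against 1304, 1148 and 1133 in WT mice (-0.06, -0.29 to 0.17). Kcnq1, best known from heart and epithelia, was dim, with 28.6, 20 and 18.3 in KO mice and 30.4, 50.5 and 36.4 in WT mice, without overlap (-0.52, limma adjusted p = 0.50). Kcnh2, the ERG channel gene, read 101, 93.8 and 92.2 in KO mice, against 142, 113 and 100 in WT mice (-0.26, -0.58 to 0.07). The EAG-type members Kcnh1, Kcnh3 and Kcnh5 differed by 0.10, 0.07 and 0.14. Kcnq5, another M-current subunit, differed by -0.06 in the probe set used. A second probe set for Kcnq5, noted after its values were seen, read 393, 236 and 424 in KO mice, against 202, 218 and 233 in WT mice (0.61, limma adjusted p = 0.23). The third differed by -0.04, so the probe sets of Kcnq5 disagreed.

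**Figure D3:**
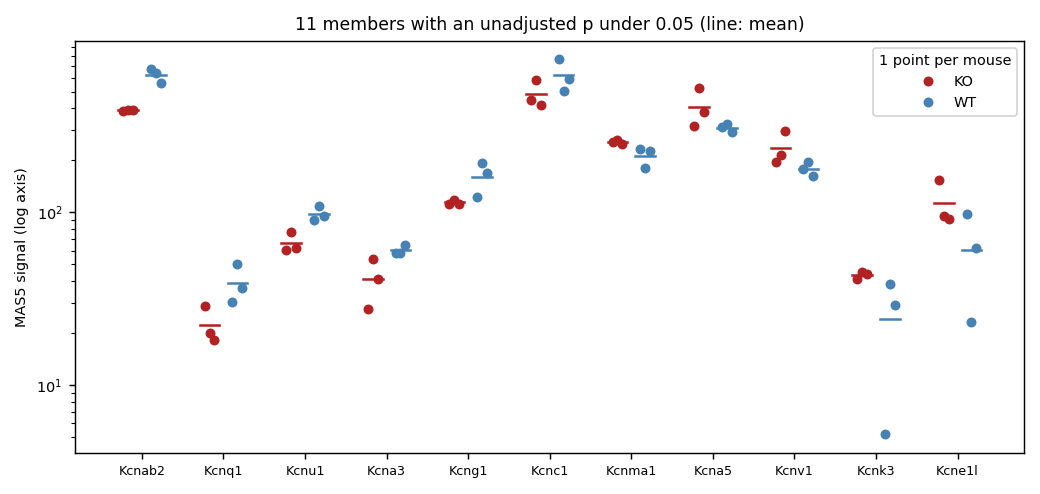
The MAS5 signal in each mouse on a log axis for the 11 members with an unadjusted p under 0.05, KO left of WT, ordered from the lowest to the highest difference, with the group mean as a line. The Kcnk3 and Kcne1l differences each include 1 low WT array, at 5.2 and 23.2, while Kcnab2 has its 3 KO mice between 388 and 390.

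Inward rectifiers gave no call, and 0 of 10 reached an unadjusted limma p under 0.05, against 9.74% of all genes. Their median difference was 0.18, with 7 higher and 3 lower. Per-mouse medians over these 10 genes were 0.19, 0.17 and 0.19 in KO mice, and 0.03, -0.02 and 0.01 in WT mice. Each gene was centred on its mean over WT mice, which holds the WT medians near 0. The genes also share the same 6 arrays, and the median carries no test. Kcnj4, a strong rectifier of forebrain neurons, read 297, 268 and 260 in KO mice, against 235, 249 and 236 in WT mice, without overlap (0.19, -0.03 to 0.40, limma adjusted p = 0.63). Kcnj2, its counterpart in striatal neurons, was below the floor.

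Kcnj3, Kcnj6 and Kcnj9 encode the Kir3 subunits that G-protein beta-gamma dimers open. Kcnj3 read 155, 176 and 195 in KO mice, against 184, 122 and 156 in WT mice (0.18, -0.14 to 0.51). Kcnj6 was dim, with 42.8, 35.2 and 32.1 in KO mice and 17, 32.2 and 23.8 in WT mice (0.40, -0.09 to 0.88). Kcnj9 read 134, 117 and 147 in KO mice, against 179, 184 and 92.7 in WT mice (-0.13, -0.58 to 0.32). Its other tested probe sets went the other way, at 0.29 and 0.14, and neither was called. The groups overlapped for all 3 genes. Kcnj10, the glial rectifier that clears K+ from around neurons, read 574, 535 and 408 in KO mice, against 573, 536 and 514 in WT mice (-0.11, -0.36 to 0.14). Kcnj8, the KATP pore subunit of mural cells, read 22.2, 48.5 and 44.8 in KO mice, against 35.7, 35 and 52.9 in WT mice (-0.09, -0.62 to 0.43). Endothelial and mural markers, all 6 measured, summed to 995 to 1366 in KO mice and 1163 to 1352 in WT mice. Kcnj11, the neuronal KATP pore subunit that closes with ATP, read 152, 163 and 172 in KO mice, against 145, 52.9 and 181 in WT mice (0.46, -0.17 to 1.09), with WT 2 far below the other arrays. Kcnj12, Kcnj13 and Kcnj16 differed by 0.00, 0.23 and 0.34, none with an unadjusted p under 0.05. Kcnj13 is also a choroid plexus gene, and Ttr of that list was higher in KO mice as given above. Its part in the Kcnj13 value was not tested.

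All 6 measured K2P genes were higher in KO mice, with a median of 0.13, and none was called. Kcnk2, a channel opened by stretch and lipids, read 667, 758 and 559 in KO mice, against 611, 638 and 614 in WT mice (0.08, -0.15 to 0.30). Kcnk3, an acid-sensitive leak channel, read 41.1, 45.2 and 44 in KO mice, against 5.2, 38.2 and 29.1 in WT mice, without overlap (0.67, 0.01 to 1.34, limma adjusted p = 0.54). Without WT 1, the lowest array, its difference was 0.26. Kcnk1, Kcnk6, Kcnk10 and Kcnk13 differed by 0.16, 0.34, 0.10 and 0.10, and the groups overlapped for each.

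Among channels opened by internal ions and their subunits, 2 of 8 genes were higher and 6 lower in KO mice, with a median of -0.03 and no call. Kcnma1, the pore of the large-conductance BK channel, read 256, 263 and 250 in KO mice, against 232, 180 and 226 in WT mice. Its KO values all lay above its WT values (0.26, 0.01 to 0.51, limma adjusted p = 0.50). Without WT 2, its lowest array, the difference was 0.15. The 5 tested probe sets of Kcnma1 differed by -0.01 to 0.40. Kcnmb4, the neuronal beta subunit of BK, read 387, 358 and 418 in KO mice, against 391, 451 and 348 in WT mice (-0.03, -0.26 to 0.21). Kcnu1, a relative of BK known from sperm, read 60.4, 76.6 and 62 in KO mice, against 90.1, 109 and 95.2 in WT mice, without overlap (-0.47, limma adjusted p = 0.33).

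The small-conductance SK channels shape the afterhyperpolarisation. Kcnn1 read 29.1, 36.9 and 37.1 in KO mice, against 44.7, 50.6 and 48.2 in WT mice, without overlap (-0.34, -0.75 to 0.06, limma adjusted p = 0.63). Kcnn2 read 143, 189 and 194 in KO mice, against 208, 180 and 192 in WT mice (-0.14, -0.43 to 0.15). The sodium-activated Kcnt1 read 414, 439 and 555 in KO mice, against 489, 473 and 474 in WT mice (-0.04, -0.27 to 0.19). Kcnt2 and Kcnmb2 differed by -0.03 and 0.00. The non-coding Kcnq1ot1, an imprinted transcript antisense to Kcnq1, read 257, 370 and 289 in KO mice, against 237, 279 and 269 in WT mice (0.20, -0.08 to 0.48), and its 5 tested probe sets differed by -0.20 to 0.20. Kcnmb4os2 differed by 0.15.

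Several tested probe sets were available for 29 of the 59 genes. All of a gene's probe sets had the same sign in 14 genes and differed in sign in 15. Their spread exceeded 0.5 in 4 genes, Kcnv1, Kcnc1, Kcnq5 and Kcnf1, named here for that spread. Of the 51 tested probe sets that were not the one used for their gene, 1 was called, lower (the second of Kcnab2), against 0.47% of all 27022 probe sets called and 0.292% called lower. An unadjusted p under 0.05 was found for 5 of the 51 (9.8%), against 9.17% of all probe sets, and 8 did not overlap (15.7%), against 14.4%. These shares were close to the background, while the members' own share of unadjusted p under 0.05 was 18.6%.

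**Figure D4:**
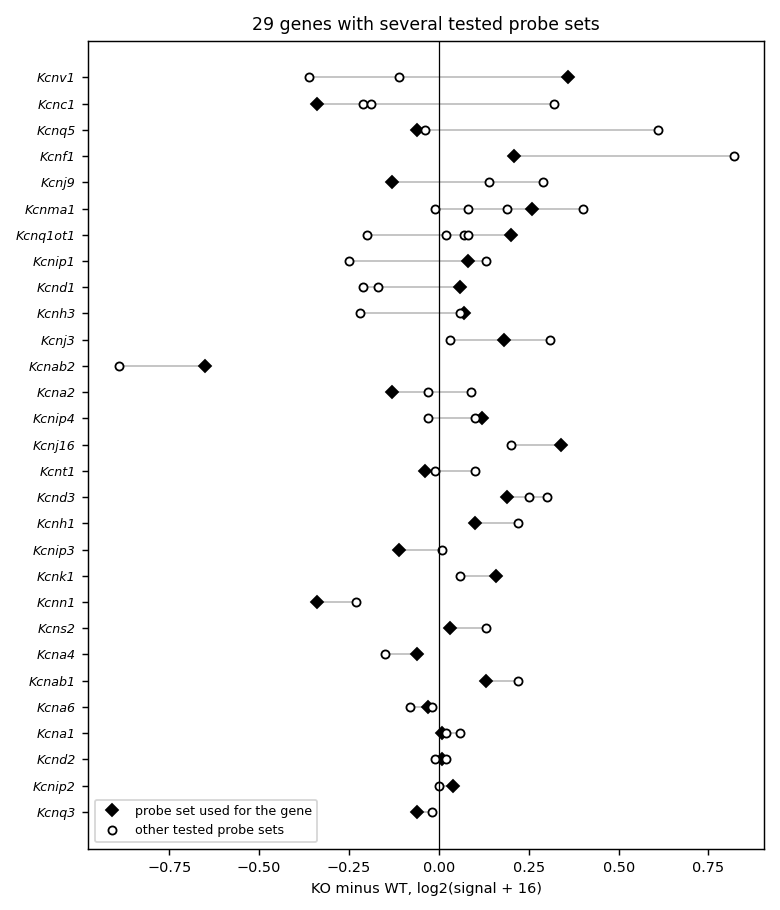
The difference KO minus WT in log2(signal + 16) for every tested probe set of the 29 genes with more than 1, ordered from the widest to the narrowest spread. Diamonds are the probe sets used for each gene and open circles the others. Kcnv1 spans -0.36 to 0.36, and both probe sets of Kcnab2 lie below 0.

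Genes that act with potassium channels under other names were taken from a list of 37, of which 28 were measured. Of these 20 were higher and 8 lower in KO mice, with a median of 0.04, and 1 was called, higher, against 0.146% of all genes called higher. The list was chosen with earlier results of these data known, so this comparison is a description and not a test. Groups did not overlap for 4 of the 28 (14.3%), and 3 had an unadjusted p under 0.05 (10.7%), so these shares lay near the 15.1% and 9.74% of all genes. The called gene was Gnb1, a G-protein beta subunit that as part of beta-gamma dimers opens Kir3 channels. It read 2805, 2690 and 2727 in KO mice, against 1930, 1386 and 1168 in WT mice, without overlap. Means were 2740 ± 59.1 in KO mice and 1495 ± 392 in WT mice (SD, n = 3 each), a difference of 0.90 with a standard error of 0.14 (limma adjusted p = 0.012). Its second probe set rose by 1.25, with 997, 1071 and 981 in KO mice and 593, 360 and 338 in WT mice (limma adjusted p = 0.0037). Without KO 3 both remained called, the first at an adjusted p of 0.05 after rounding. The call of the first was lost without KO 1 (adjusted p = 0.054) and without WT 2 (adjusted p = 0.056). Sgk1, a kinase that acts on channel turnover, read 1155, 2572 and 2697 in KO mice, against 1230, 1384 and 1666 in WT mice, and was not called (0.50, limma adjusted p = 0.58). Without KO 1, its low KO array, it was called at a difference of 0.89 (limma adjusted p = 0.0063). Hcn3, a hyperpolarisation-activated channel, read 12.6, 39.5 and 22.1 in KO mice, against 52, 48.8 and 56.8 in WT mice (-0.80, limma adjusted p = 0.28). Dlg4, the scaffold that clusters Kv1 channels, differed by 0.24 (limma adjusted p = 0.46), and by -0.03 and 0.06 in its other tested probe sets. Sgk1, Hcn3 and Dlg4 were named after their values were seen. The proteins that hold Kv1 channels in axons, Cntnap2, Cntn2, Lgi1 and Adam22, differed by -0.15, -0.05, 0.04 and 0.16 in the probe set used, none with an adjusted p under 0.05. Their other tested probe sets differed by -0.01 and -0.23 for Cntnap2, -0.40 and -0.28 for Cntn2, 0.06 for Lgi1 and 0.10 for Adam22, and none was called.

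Kcnab2 is on chromosome 4, as is Gnb1, and it was the only one of the 59 genes there. Of the 745 genes of chromosome 4 kept by the same rule, 8 were called (1.07%), against 0.407% of the genes elsewhere. The 8 include Kcnab2, whose call led to this count, and Gnb1, so the comparison is not independent of these calls. The 30 nearest measured genes, 15 on each side, were examined because Kcnab2 was called. Of these 20 were lower in KO mice (66.7%), against 51.8% of all genes and 53.6% of chromosome 4 genes. By 1 probe set per gene 1 of the 30 was called, against 0.447% of all genes. An unadjusted limma p under 0.05 was found for 8 of the 30, against 9.74% of all genes. Of these 8, 6 were lower, and 5.6% of all genes were lower at that threshold. Counting any tested probe set, 2 of the 30 had a call, both lower, against 0.675% of all genes, 1.61% of chromosome 4 genes and 0.615% of the genes elsewhere. Acot7, an acyl-CoA thioesterase, read 1341, 1288 and 1335 in KO mice, against 2066, 1733 and 1718 in WT mice (-0.47, limma adjusted p = 0.028). Leaving out any 1 array other than WT 3 ended this call, with adjusted p of 0.052 to 0.14 (0.081 without KO 3). For Rpl22, a ribosomal protein gene, 1 of 3 probe sets fell, with 749, 613 and 477 in KO mice and 942, 1242 and 1254 in WT mice (-0.90, limma adjusted p = 0.021). Leaving out KO 2, KO 3, WT 2 or WT 3 ended it, with adjusted p of 0.053 to 0.10 (0.053 without KO 3). The other Rpl22 probe sets differed by -0.01 and -0.29. By 1 probe set per gene, Klhl21 had the lowest difference of the 30 (-0.79, limma adjusted p = 0.15). Plekhg5 and Tnfrsf25 were higher without overlap, at 0.27 and 0.64 (limma adjusted p of 0.48 and 0.34). Klhl21, Plekhg5 and Tnfrsf25 were named after their values were seen. The immediate neighbours, Chd5 and Nphp4, were lower without being called. Chd5 read 230, 209 and 304 in KO mice, against 288, 310 and 342 in WT mice (-0.34, -0.62 to -0.05, limma adjusted p = 0.44), and Nphp4 read 104, 86.1 and 70.3 in KO mice, against 104, 146 and 132 in WT mice (-0.49, -0.85 to -0.12, limma adjusted p = 0.35). The strain background of the allele is not stated in the labels, and whether chromosomal position has a part in the Kcnab2 value was not tested.

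**Figure D5:**
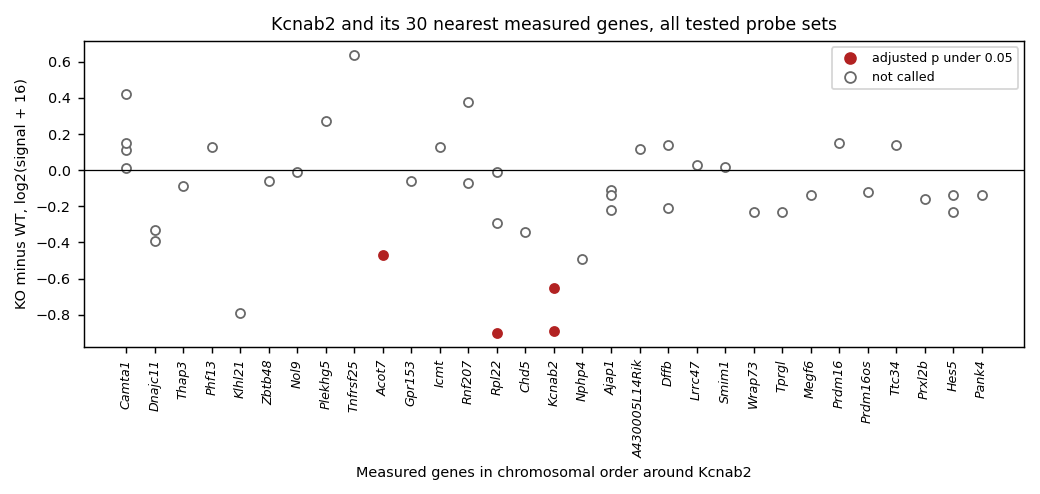
The difference KO minus WT in log2(signal + 16) for all tested probe sets of Kcnab2 and the 30 nearest measured genes, in chromosomal order without scale. Filled points passed an adjusted p under 0.05: both of Kcnab2 at -0.65 and -0.89, Acot7 at -0.47 and 1 of 3 of Rpl22 at -0.90.

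The 25 genes below the floor included Kcnj2, Kcne2, Kcnn3, Kcnk4 and Kcnj5 and were not compared. A signal below the floor is not the same as no transcript.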

How the data were processed

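Each deposited value is a linear intensity, 1 MAS5 signal per probe set and array according to the submitters' processing notes, which name no version or settings. The authors had already scaled the arrays: the trimmed mean was 150 on all 6 and medians were 43.1 to 47.3, so changes are relative to the rest of the array. Of 45101 probe sets, 64 controls were left out. Signals were log2-transformed after adding 16, which understates changes of dim probe sets, and those in the lowest 40% by mean log2 signal (up to 26.8) were dropped, leaving 27022. KO and WT were compared with limma 3.58.1 in R 4.3.3 (lmFit, eBayes with intensity trend, prior degrees of freedom 8.34), adjusted by Benjamini-Hochberg over all 27022. On simulated data this called 22.2% of probe sets changed by 0.5, 61.8% by 1, 85.2% by 1.5 and 92.8% by 2, and 3.66% of calls were false. Each of 10 simulations had 200 changed probe sets and normal noise drawn independently for each probe set. Variation that probe sets share within an array was left out, so rates in the real data may differ. The precision is limited by 3 arrays per genotype.

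Symbols came from the platform annotation (34945 probe sets with 1 symbol, 932 with several), 34741 of them matched to RefSeq's GRCm38.p6 table, which also gave gene order and promoters. The members and lists were chosen with earlier results of these data known. Named were called members, members with an unadjusted p under 0.05, the smallest p in each subfamily, members with a role in striatum, called partners and Ppargc1a; further members are given by their differences. Deviations of same-numbered KO and WT mice correlated at -0.0091, -0.0348 and 0.0167, against -0.0413 to 0.0493 for differently numbered mice. The labels do not say whether the numbers pair the mice. These correlations cannot decide it, because a shared litter or handling need not show in them. Alternatives were other normalizations, offsets, filters, variance models, a threshold of 0.1, a replicate block, averaging the probe sets within genes and dropping each array in turn.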

Additional observations from a re-analysis of the deposited data

How the results depend on the processing

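Kcnab2 remained called under 16 of its 17 alternatives, with adjusted limma p between 0.0046 and 0.033. Of these, the threshold of 0.1 uses the same fit, so Kcnab2 could not fail it. Without the intensity trend its difference was -0.65 and its adjusted p 0.15, which left 0 member calls, with 7 members at an unadjusted p under 0.05. No other of the 37 named members was called under any alternative. The replicate block left 1 member call (Kcnab2, adjusted p = 0.019). Over all genes, calls were 55 (18 higher, 37 lower), against 46 (22 higher, 24 lower) with median centring of the arrays, 16 without a filter, 6 without the trend and 23 to 42 when an array was left out. Partner calls dropped to 0 without a filter, without the trend and with robust estimation, where 3, 2 and 3 partners had an unadjusted p under 0.05, with adjusted p of 0.076, 0.24 and 0.058 for Gnb1, and ranged from 0 to 1 when an array was left out. Without KO 1 the 1 partner called was Sgk1 (0.89) in place of Gnb1. The members' median of 0.04 became 0.08 with median centring, which moved the median of all genes to 0.04, 0.07 with an offset of 1, 0.01 without a filter (all 84 genes), and 0.00 to 0.07 when an array was left out.

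Of the 36 named members that were not called, 30 had a difference that moved by over 1.5 times or turned when 1 array was left out. Directions turned as follows, none of them a call. Kcna1 was -0.01 after quantile normalization. With median centring Kcnmb4 was 0.02 and Kcnt1 0.01. With probe sets averaged within genes Kcnip1 was -0.01, Kcnj9 0.10, Kcnt1 0.02 and Kcnv1 -0.04, against 0.36 in the probe set used for Kcnv1. With an array left out, the ranges were -0.07 to 0.07 for Kcnd2, -0.06 to 0.12 for Kcnip2, -0.23 to 0.14 for Kcnj8, -0.07 to 0.17 for Kcns2, -0.16 to 0.04 for Kcnt1, -0.05 to 0.04 for Kcna1, -0.10 to 0.23 for Kcnip1, -0.02 to 0.19 for Kcnk2, -0.11 to 0.07 for Kcnmb4, -0.20 to 0.04 for Kcnj10, -0.14 to 0.07 for Kcnq3, -0.41 to 0.02 for Kcnj9 and -0.02 to 0.55 for Kcnc2. The cause was not tested. Differences of dim probe sets, such as Kcnk3 and Kcnq1, had standard errors several times those of bright ones.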
